A study of Mus musculus with 4 samples.

Results

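Myosin heavy chains are the motor proteins of muscle and of the contractile cytoskeleton, and 10 of their genes were followed in hearts of mice with and without *Jun* in striated muscle: *Myh1*, *Myh2*, *Myh3*, *Myh4*, *Myh6*, *Myh7*, *Myh7b*, *Myh8*, *Myh9* and *Myh10*. Members were found by name, as every probe set whose only gene symbol in the platform annotation is one of these, which gave 19 of the 45037 probe sets tested and 10 of 18193 named genes. Both groups were 10 weeks old mice on a mixed 129/Ola-C57BL/6 background without any stated treatment. *Junf/f* mice carry floxed *Jun* alleles, and the study describes these controls as Cre-negative. *Jun delta mu* mice are littermates that carry the same floxed alleles plus Cre driven by the muscle creatine kinase promoter, so that the deletion covers skeletal as well as cardiac muscle and leaves the other cells of the heart with *Jun*. With no control group described as carrying Cre, an effect of Cre and one of the deletion cannot be told apart. Each genotype had 2 hearts with 1 Affymetrix array per heart, taken as whole hearts from the titles and methods although the growth notes describe plated ventricular cells. Sex is not given in the sources used here.

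Each myosin II molecule holds a pair of heavy chains, whose heads split ATP and pull on actin and whose tails pack into thick filaments. Adult mouse ventricle runs on α-myosin heavy chain, encoded by *Myh6*, while *Myh7* encodes the slower β chain of the fetal ventricle and of slow skeletal fibres, which returns under load and is held down by thyroid hormone. *Myh7b* encodes a slow-type relative. *Myh2*, *Myh1* and *Myh4* encode the IIa, IIx and IIb chains of fast skeletal fibres, *Myh3* and *Myh8* the embryonic and perinatal chains of developing muscle, and *Myh9* and *Myh10* the non-muscle chains IIA and IIB of the cytoskeleton.

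The arrays were alike in level, with median signals of 5.45 to 5.47 on the log2 scale. *Junf/f* replicate 1 stood somewhat apart, with correlations to the other arrays of 0.994 to 0.995 and 104 probe sets more than 2-fold from their mean, against 24 to 33 on each of the others. The deleted gene checked the labels: the brighter *Jun* probe set read 8.30 and 9.00 on the *Junf/f* arrays and 7.02 and 7.14 on the *Jun delta mu* arrays (difference -1.57, limma, adjusted p = 0.896). Signals are RMA values on the log2 scale, and a difference is always the mean of *Jun delta mu* minus that of *Junf/f*. A probe set passed the study's threshold when the groups differed by more than 1.3-fold (0.38 on the log2 scale) at an unadjusted p under 0.05 in limma, which 1.53% of all probe sets did. After adjustment 0 probe sets stayed under 0.05, both with limma, by which 2326 had an unadjusted p under 0.05, and with the methods' t-test. In whole hearts, fewer cells of a type and less RNA per cell cannot be told apart.

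None of the 19 myosin heavy chain probe sets passed the threshold. The largest difference among them was in *Myh7*, at -0.72, and the 4 probe sets of the cardiac and slow isoforms *Myh6*, *Myh7* and *Myh7b* were all below 0. The 8 probe sets of the skeletal and developmental isoforms were divided evenly, with 4 above 0 and 4 below. Of the 7 non-muscle probe sets, 5 were below 0 and 2 above. Over all 19, the median difference was -0.05 against 0.00 for all probe sets, and adjusted p-values from limma ran from 0.896 to 1.00. Probe sets of 1 gene share their target and are not independent of each other.

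**Figure D1:**
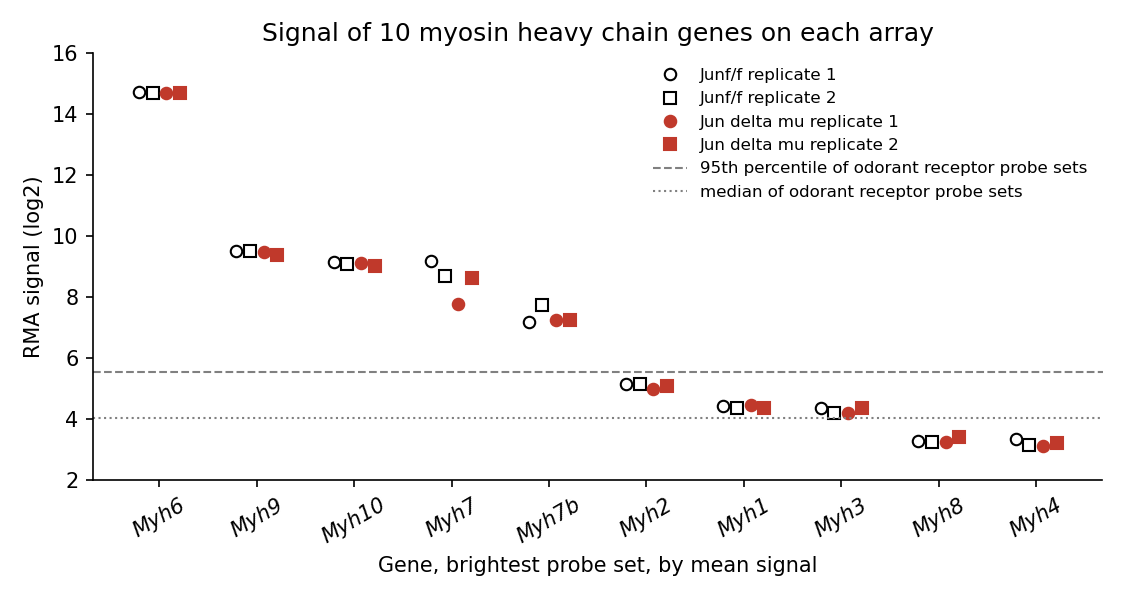
RMA signal (log2) of the brightest probe set of each of the 10 genes on each of the 4 arrays, ordered by mean signal. Open symbols are *Junf/f* and filled symbols *Jun delta mu* hearts, circles are replicate 1 and squares replicate 2, and the dashed and dotted lines mark the 95th percentile and the median of 44 odorant receptor probe sets; 5 genes lie above the dashed line and 5 below it, and *Myh7* has the widest spread.

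The order of the signals was led by *Myh6* on every array. By brightest probe set and mean signal it ran *Myh6* (14.70), *Myh9* (9.47), *Myh10* (9.09), *Myh7* (8.57), *Myh7b* (7.36), *Myh2* (5.09), *Myh1* (4.41), *Myh3* (4.28), *Myh8* (3.30) and *Myh4* (3.22). Signals of different probe sets depend on their probes as well as on the RNA, so this is an order of array signals and not of mRNA amounts. *Myh10* and *Myh7* overlapped in range, with *Myh7* in rank 3 on *Junf/f* replicate 1 and rank 4 on the other arrays. *Myh8* and *Myh4* overlapped likewise and changed places on that same array. The remaining neighbours kept their order on all 4 arrays, although the lowest *Myh1* value stood only 0.01 above the highest *Myh3* value, and the lowest *Myh7* value only 0.05 above the highest of *Myh7b*.

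As a gauge of dim signals, 44 probe sets of odorant receptors, genes of the nose that are scarcely used in heart, had a median of 4.04 and a 95th percentile of 5.55. *Myh6*, *Myh9*, *Myh10*, *Myh7* and *Myh7b* lay above that percentile by their brightest probe sets. *Myh2*, *Myh1*, *Myh3*, *Myh8* and *Myh4* lay below it on all their probe sets. The files carry no detection calls, and a value at this level does not say whether the gene was expressed.

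*Myh6* and *Myh7* lie in tandem on chromosome 14 of GRCm38.p6, *Myh6* from 54941921 to 54968017 and *Myh7* from 54970684 to 54994626, with 2666 bases between them. *Myh7b* lies on chromosome 2 from 155611243 to 155634307. Each of the 3 genes holds a microRNA hairpin within its bounds in RefSeq, miR-208a in *Myh6*, miR-208b in *Myh7* and miR-499 in *Myh7b*, known as the myosin-encoded microRNAs of muscle. Their mature forms are shown because they are a feature the 3 heart isoforms share; capitals mark the seed, bases 2 to 8.

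mmu-miR-208a-3p (host *Myh6*): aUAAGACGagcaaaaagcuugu

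mmu-miR-208b-3p (host *Myh7*): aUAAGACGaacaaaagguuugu

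mmu-miR-499-5p (host *Myh7b*): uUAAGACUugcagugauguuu

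The first pair share the whole seed and differ at 3 bases outside it, and the miR-499-5p seed differs from theirs at 1 base, its last. No probe set of the array is annotated to these microRNAs, so that their levels were not measured here.

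*Myh6* gave the brightest signal of the family and a different reading from each of its probe sets. Probe set 1448826_at read 14.72 and 14.70 on the *Junf/f* arrays and 14.69 and 14.67 on the *Jun delta mu* arrays. The groups did not overlap but differed by only -0.03 (standard error 0.09, 95% interval -0.24 to 0.19, limma, adjusted p = 0.983). Only 9 probe sets of the array were brighter on average, and the highest value of any probe set was 14.87. Whether signals this close to the top of the scale still follow mRNA was not tested, so this interval does not bound the change in mRNA. The second probe set, 1417729_at, read 12.17 and 11.87 in *Junf/f* and 11.69 and 11.72 in *Jun delta mu* hearts. Its groups did not overlap either, and it differed by -0.31 (standard error 0.12, 95% interval -0.62 to 0.00, adjusted p = 0.896), or 80.6% of the *Junf/f* level on the linear scale. It was below 1.3-fold with all arrays and passed at -0.46 without *Junf/f* replicate 2, which leaves the array that stood apart as the only control. Without *Junf/f* replicate 1 it was at -0.16.

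*Myh7* was the member with the widest spread between hearts. Its single probe set, 1448553_at, read 9.17 and 8.68 on the *Junf/f* arrays and 7.79 and 8.63 on the *Jun delta mu* arrays. Both *Jun delta mu* hearts were below both controls, but replicate 2 lay only just below *Junf/f* replicate 2, and replicate 1 was the low array. The means were 8.93 ± 0.35 (SD, n = 2) and 8.21 ± 0.60 (SD, n = 2), a difference of -0.72 (standard error 0.31, 95% interval -1.49 to 0.06, limma, adjusted p = 0.896), or 60.8% of the *Junf/f* level on the linear scale. The difference was larger than 1.3-fold, whereas its unadjusted p was 0.0634, so that *Myh7* did not pass the threshold. The interval holds both no difference and a fall by more than the estimate. The value rested on *Jun delta mu* replicate 1: it was -0.29 without that array and -1.14, past the threshold, without replicate 2, and -0.47 and -0.96 without *Junf/f* replicates 1 and 2. It also passed with a trended and robust prior in limma (unadjusted p = 0.0485) but not by the methods' t-test (unadjusted p = 0.281). Apart from the arrays, the study reported significantly lower *Myh7* in native *Jun delta mu* hearts by quantitative RT-PCR.

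A pair of further probe sets is annotated to both *Myh7* and *Myh6* and belongs to neither alone. Probe set 1448554_s_at read 14.68 and 14.57 in *Junf/f* and 14.53 and 14.57 in *Jun delta mu* hearts, a difference of -0.08. Probe set 1448827_s_at read 12.38 and 12.28 in *Junf/f* and 12.01 and 12.05 in *Jun delta mu* hearts, where the groups were well apart. It differed by -0.30 (95% interval -0.53 to -0.07, adjusted p = 0.896), less than 1.3-fold. The brighter shared probe set thus read close to the brighter *Myh6* probe set in level and difference, and the dimmer one close to the dimmer *Myh6* probe set.

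The log2 ratio of *Myh7* to *Myh6* on each array, the fetal against the adult ventricular isoform, was -5.55 and -6.02 in *Junf/f* and -6.90 and -6.04 in *Jun delta mu* hearts by the brightest probe sets. The groups were separate by the small gap between the replicate 2 arrays, with means of -5.78 ± 0.33 (SD, n = 2) and -6.47 ± 0.61 (SD, n = 2). Against the dimmer *Myh6* probe set the ratio was -2.99 and -3.19 in *Junf/f* and -3.91 and -3.09 in *Jun delta mu* hearts, and the groups overlapped. The difference of -0.69 had p = 0.333 in an exact two-sided permutation test, the smallest p that 2 against 2 arrays allow, and that of -0.41 had p = 0.667 in the same exact test. Neither test shows unequal change of the isoforms. The brighter *Myh6* probe set lay close to the highest value of the arrays with a range of 0.05, so that the first ratio is close to the *Myh7* difference itself.

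**Figure D2:**
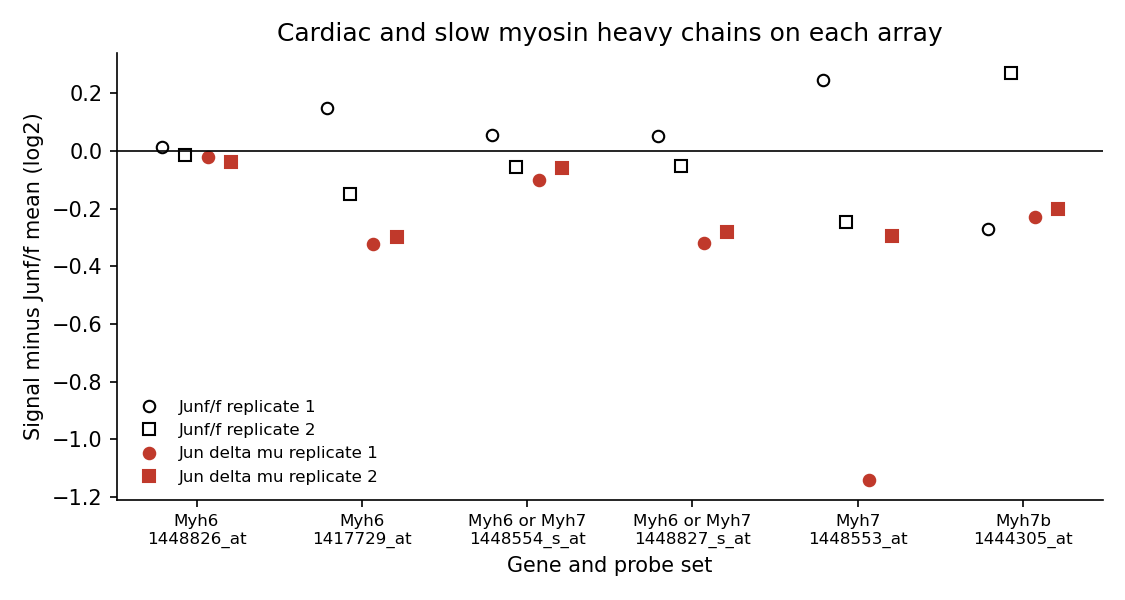
Signal on each array minus the *Junf/f* mean of the same probe set (log2) for the probe sets of *Myh6*, those shared by *Myh6* and *Myh7*, and those of *Myh7* and *Myh7b*. Symbols are as in the plot of signals by array; *Jun delta mu* replicate 1 is the low point for *Myh7*, and the *Junf/f* arrays lie farthest apart for *Myh7b*.

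*Myh7b* read 7.20 and 7.74 on the *Junf/f* arrays and 7.24 and 7.27 on the *Jun delta mu* arrays. The *Jun delta mu* hearts lay between the controls, close to the lower one. The difference was -0.22 (standard error 0.18, 95% interval -0.68 to 0.24, limma, adjusted p = 0.912). It depended on which control was kept, at -0.49 and past the threshold without *Junf/f* replicate 1 and at 0.05 without *Junf/f* replicate 2.

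Both non-muscle chains were even across the hearts. *Myh9*, on chromosome 15 from 77760585 to 77842175 and active in nearly every cell type, has 5 probe sets. The brightest, 1420171_s_at, read 9.50 and 9.52 in *Junf/f* and 9.49 and 9.37 in *Jun delta mu* hearts, a difference of -0.08 (95% interval -0.31 to 0.15, limma, adjusted p = 0.940). The other 4 differed by between -0.11 and 0.13 and did not share a direction. The one on the higher side of this range, 1440708_at, was dim at a mean of 4.36. *Myh10*, on chromosome 11 from 68691915 to 68816626, read 9.15 and 9.09 in *Junf/f* and 9.12 and 9.02 in *Jun delta mu* hearts on its bright probe set, a difference of -0.05 (95% interval -0.28 to 0.18, limma, adjusted p = 0.959). Its other probe set was dim, with a mean of 3.90, and differed by -0.13. For the brightest probe set of each gene the limma interval on all 4 arrays excludes a change of 1.3-fold in either direction. It did not for either one without *Jun delta mu* replicate 1, which leaves 1 array in that group. By the methods' t-test the interval of the *Myh9* probe set 1417472_at was -0.64 to 0.70 and included such a change.

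The skeletal and developmental chains are encoded side by side on chromosome 11, in the order *Myh3*, *Myh2*, *Myh1*, *Myh4* and *Myh8*, from 67078273 to 67308634. All 8 of their probe sets were as dim as those of odorant receptors. *Myh2* read 5.14 and 5.15 in *Junf/f* and 4.98 and 5.09 in *Jun delta mu* hearts, a difference of -0.11 (95% interval -0.34 to 0.12, adjusted p = 0.912). *Myh3* read 4.36 and 4.20 in *Junf/f* and 4.20 and 4.36 in *Jun delta mu* hearts, with a difference of 0.00 (95% interval -0.27 to 0.28). *Myh8* read 3.28 and 3.25 against 3.27 and 3.42, a difference of 0.08 (95% interval -0.17 to 0.32). Its groups overlapped, as did those of *Myh3* and *Myh4*. The *Myh4* probe sets read 3.35 and 3.17 against 3.11 and 3.23, and 3.23 and 3.10 against 3.17 and 3.30, differences of -0.09 and 0.07. RMA compresses differences at such low signals, so that small intervals here do not bound the change in mRNA.

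*Myh1* had 3 probe sets, which did not move together. The brightest, 1452465_at, read 4.44 and 4.38 in *Junf/f* and 4.46 and 4.38 in *Jun delta mu* hearts, a difference of 0.01 (95% interval -0.21 to 0.24). Probe set 1427868_x_at, whose ending marks probes that may bind related sequences, read 3.005 and 3.20 against 2.79 and 2.85, a difference of -0.28 (95% interval -0.55 to -0.02, limma, adjusted p = 0.896). It was the 1 member probe set with an unadjusted p under 0.05, at less than 1.3-fold, and it passed at -0.38 without *Junf/f* replicate 1. Its annotated accession is also that of a probe set for *Myhas*, so its target is uncertain. *Myhas* is an antisense RNA whose gene shares 382 bases with the end of *Myh1*, with 530 bases between that gene and *Myh4*. The *Myhas* probe set itself read 3.56 and 3.55 against 3.57 and 3.75. The remaining *Myh1* probe set, 1427520_a_at, differed by -0.00.

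**Figure D3:**
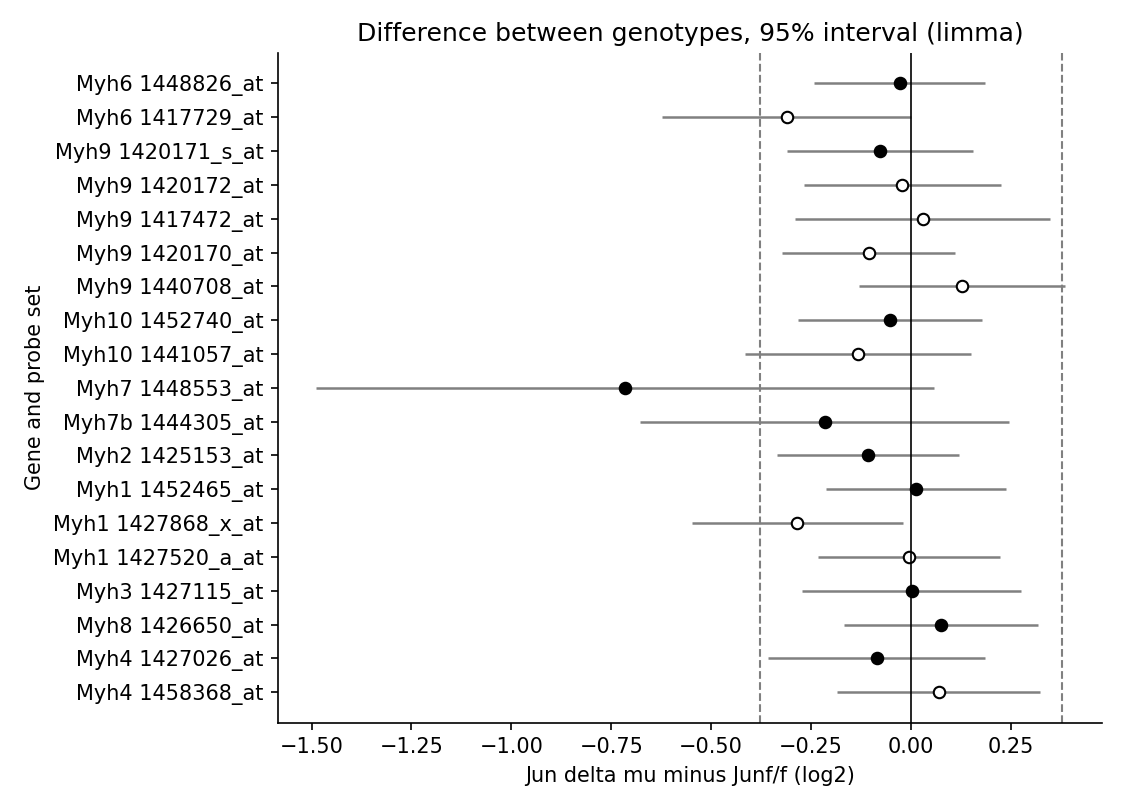
Difference between genotypes (log2, *Jun delta mu* minus *Junf/f*) of the 19 member probe sets with 95% intervals from limma, 2 arrays per group. Filled points are the brightest probe set of each gene, and dashed lines mark 1.3-fold in each direction; *Myh7* lies beyond the lower line with an interval that includes 0, and every other point lies between the lines.

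Separation of the groups was common on arrays of 2 against 2. Of the 19 member probe sets, 7 read lower on both *Jun delta mu* arrays than on both *Junf/f* arrays and 1 read higher on both, while 11 overlapped. Over all probe sets 16.7% were separate in the lower direction and 17.3% in the higher direction, so that a separation without a test is a frequent outcome here. The 7 were those of *Myh7* and *Myh2*, both of *Myh6*, 2 of *Myh9* and 1 of *Myh1*.

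Sequence around annotated starts was set beside these values because Jun proteins bind DNA as part of AP-1. RefSeq windows from 250 bases before to 50 after each start (GRCm38.p6) gave 11 windows for the 10 genes. A loose form of the AP-1 motif, TGANTCA with any base at its centre, reads the same on both strands. It was found in 1 of them, that of *Myh1*, and in 7.81% of all 32851 windows. The match in *Myh1* was TGATTCA, whose centre is not the G or C of the usual AP-1 site, so no member window held that stricter form. The MCAT motif CATTCC or its reverse GGAATG, bound by TEAD factors and described in muscle genes, was found in 5 of 11 windows, those of *Myh1*, *Myh4*, *Myh6*, *Myh7* and *Myh10*, and in 14.7% of all. TATAAA or TTTATA was found in 7 of 11 and in 13.6% of all. No motif overlapped another in the windows shown. The windows of 3 genes are printed, those of the adult and fetal heart isoforms and the one that holds TGANTCA, all on the gene's own strand with motifs in capitals. That of *Myh6* is at chr14:54966558-54966857 on the minus strand, and its start is an internal one, 1410 bases inside the 5′ end of the gene as given above, so that the window lies wholly within the gene.

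*Myh6*: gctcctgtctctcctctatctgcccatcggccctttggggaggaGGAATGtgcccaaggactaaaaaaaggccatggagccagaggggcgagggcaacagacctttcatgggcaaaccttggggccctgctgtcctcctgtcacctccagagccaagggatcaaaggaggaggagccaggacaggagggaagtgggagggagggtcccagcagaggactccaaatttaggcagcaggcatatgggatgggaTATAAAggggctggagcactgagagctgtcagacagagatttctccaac

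The first of the *Myh7* windows is at chr14:54994577-54994876 on the minus strand, and the second, whose start lies 77 bases downstream, held none of these motifs.

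*Myh7*: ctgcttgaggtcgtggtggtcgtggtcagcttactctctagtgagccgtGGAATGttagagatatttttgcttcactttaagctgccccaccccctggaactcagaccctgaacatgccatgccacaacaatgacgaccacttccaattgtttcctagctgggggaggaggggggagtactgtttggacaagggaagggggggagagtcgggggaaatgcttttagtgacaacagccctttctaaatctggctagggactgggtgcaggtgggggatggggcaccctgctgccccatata

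The window of *Myh1* is at chr11:67199852-67200151 on the plus strand.

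*Myh1*: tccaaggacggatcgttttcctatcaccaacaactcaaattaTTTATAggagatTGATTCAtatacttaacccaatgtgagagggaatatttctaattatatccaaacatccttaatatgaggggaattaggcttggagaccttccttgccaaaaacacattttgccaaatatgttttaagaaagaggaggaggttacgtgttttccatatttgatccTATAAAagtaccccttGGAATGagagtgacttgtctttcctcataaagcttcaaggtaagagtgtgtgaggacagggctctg

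GGAATG began 206 bases before the start in *Myh6*, 201 before it in *Myh7* and 16 before it in *Myh1*, where TGATTCA began 196 bases before it. A match is a run of letters and not a binding site, and a window without one says nothing about sites elsewhere.

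For the partners of the heavy chains the brightest probe set stood for the gene, and by this rule 0.665% of all genes were higher and 0.786% lower past the threshold. Of 11 myosin light chains, *Myl1*, the alkali light chain of fast skeletal muscle, rose from 10.21 and 10.48 to 11.39 and 11.39 and 10 did not pass. The main ventricular light chains differed by -0.01 (*Myl2*) and -0.07 (*Myl3*). Of 9 measured proteins of the thick filament and M-band, *Mybpc2*, the fast skeletal myosin binding protein C, fell from 7.82 and 7.45 to 5.26 and 5.42 and 8 did not pass, among them the giant sarcomere protein titin (*Ttn*) at -0.05 and *Mybpc3*, the cardiac myosin binding protein C, at -0.11. *Myl1* and *Mybpc2* are among the genes that the study listed from these same arrays, so that their direction here is not independent evidence. For *Mybpc2* the study also reported lower expression in unstimulated *Jun delta mu* hearts by quantitative RT-PCR. The list medians were -0.02 and -0.06 beside 0.01 for all genes.

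None of 10 genes of myosin folding and turnover passed. The chaperone *Unc45b*, which folds the myosin head in striated muscle, read 11.66 and 11.82 in *Junf/f* and 11.50 and 11.55 in *Jun delta mu* hearts, a difference of -0.22. *Smyd1*, a methyltransferase of striated muscle, differed by -0.02. The other measured heavy chains outside the 10, *Myh11* of smooth muscle and the non-muscle *Myh14*, did not pass at -0.42 and 0.07.

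None of 31 regulators linked to heavy chain transcription and the switch between isoforms passed, with a median of -0.04. *Thra*, the main thyroid hormone receptor of heart, read 8.99 and 9.02 in *Junf/f* and 8.83 and 8.84 in *Jun delta mu* hearts, a difference of -0.17. *Tead1*, a factor that binds MCAT motifs, differed by 0.02, *Sox6*, a repressor of slow-fibre genes, by 0.07 and *Med13*, a Mediator subunit and known target of miR-208a, by 0.01. The receptor *Thrb* was dim and differed by -0.02, and its partner *Rxra* differed by -0.03. The largest difference of this list was in *Hand2*, a factor of heart development, at 0.42 with 10.51 and 9.98 against 10.79 and 10.54. None of 5 measured genes of thyroid hormone supply passed, and 4 of them, the deiodinases *Dio1* and *Dio2* included, were below the odorant receptor percentile.

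Heart muscle was present as labelled, with 10 of 10 cardiac markers bright and none past the threshold. *Tnnt2*, cardiac troponin T, read 14.71 to 14.73 on the 4 arrays. Of 12 markers of fast skeletal muscle, 9 were below the odorant receptor percentile and none passed. The muscle determination factors *Myod1* and *Myog* read at most 5.01 and 4.48 on any array. *Tnni2*, the brightest of the 12, read 6.31 and 6.40 in *Junf/f* and 6.83 and 6.57 in *Jun delta mu* hearts, a difference of 0.34. Of the 12, 3 were separate and higher, against 17.8% of all genes by brightest probe set, and 0 were separate and lower. The summed linear signal of that list was 428 to 469 on the *Junf/f* arrays and 467 to 489 on the *Jun delta mu* arrays.

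Smooth muscle markers were mixed beside *Myh7*. Of 8 markers, *Cnn1* was lower past the threshold, from 5.81 and 5.31 to 4.67 and 5.11 at a dim level, and 7 did not pass. *Myh11* read 8.18 and 7.73 in *Junf/f* and 7.30 and 7.77 in *Jun delta mu* hearts. *Tagln* read 8.76 and 8.28 against 7.66 and 8.24. As with *Myh7*, *Junf/f* replicate 1 was the highest array and *Jun delta mu* replicate 1 the lowest for these 3 genes and *Mylk*, 4 of the 8. The others did not share this pattern in full. *Acta2* was lowest on *Jun delta mu* replicate 1 too, but highest on *Junf/f* replicate 2. *Myocd* was highest on *Junf/f* replicate 2, and *Smtn* and *Lmod1* on *Jun delta mu* replicate 1. The groups overlapped for *Myh11* as well as for *Smtn*, *Myocd* and *Lmod1*. The list's summed signal was also highest on *Junf/f* replicate 2. The list's median difference was -0.27, with 4 of 8 separate and lower, against 15.9% of all genes by brightest probe set, and summed linear signals of 3631 to 4022 in *Junf/f* and 3334 to 3380 in *Jun delta mu* hearts. Its part in the *Myh7* values was not tested. The same highest and lowest arrays were found outside this list, for 3 of 10 cardiac markers and 3 of 9 thick filament and M-band genes. They were also found for 5 of 31 regulators and for 0 of 12 fast skeletal markers. The share over all genes was not computed.

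Some atrial genes were high on 1 array. *Jun delta mu* replicate 2 read 8.11 for *Sln*, 9.11 for *Myl7* and 9.02 for *Myl4*, where the other arrays read 3.81 to 4.15, 4.88 to 5.51 and 5.69 to 6.03. *Nppa*, *Dkk3* (5.39) and *Bmp10* (6.64, within a range of 0.13) were also highest on that array. The remaining markers were not: *Stard10* was highest on *Jun delta mu* replicate 1 (8.82) and *Nr2f2* on *Junf/f* replicate 1 (7.43). *Nr2f1* was lowest on *Jun delta mu* replicate 2 (4.39). The list of 9 measured atrial markers had a summed linear signal of 4540 to 6177 in *Junf/f* hearts and of 6038 and 9111 in *Jun delta mu* hearts. *Nppa*, also on the cardiac list, was by far the brightest of them. It read 11.88 and 12.40 in *Junf/f* and 12.34 and 12.79 in *Jun delta mu* hearts. The sum therefore mostly follows *Nppa* and is not a measure of atrial tissue. By quantitative RT-PCR the study reported this gene (*Anf*), a hypertrophic marker, as higher in sham-operated *Jun delta mu* hearts. On *Jun delta mu* replicate 2, *Myh7* was at 8.63, higher than on *Jun delta mu* replicate 1. The brighter *Myh6* probe set was at 14.67 there, the lowest of 4 values within a range of 0.05. The dimmer *Myh6* probe set and both probe sets shared with *Myh7* were lowest on *Jun delta mu* replicate 1 instead. Whether atrial tissue had a part in these values was not tested. None of 8 endothelial markers passed. Of the 8, 6 were separate and lower, against 15.9% of all genes, and none separate and higher, with a median of -0.14. Their summed linear signal was 4558 to 4919 in *Junf/f* hearts and 4345 in both *Jun delta mu* hearts, and its part in the myosin values was not tested. None of 8 fibroblast markers passed, with 3 separate and higher against 17.8% of all genes and a median of 0.02. The collagens *Col1a1* and *Col3a1* of this list differed by 0.21 and 0.04 on the arrays. By quantitative RT-PCR the study reported both as significantly higher in native *Jun delta mu* hearts. Of 7 markers of macrophages and blood 1 was lower, *Alas2* of red cell precursors at -0.49.

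**Figure D4:**
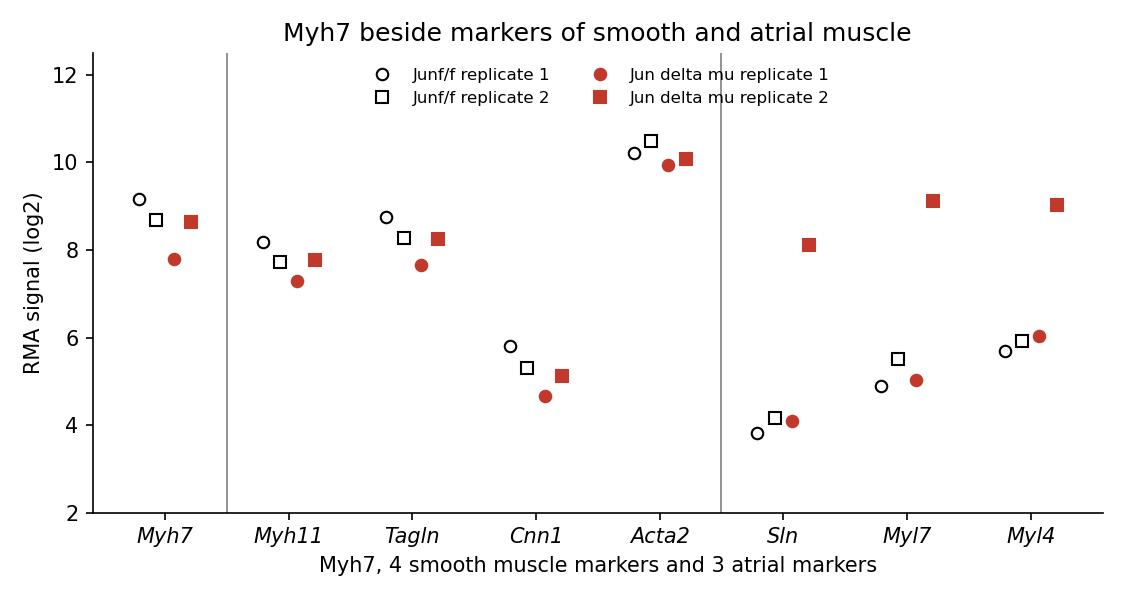
RMA signal (log2) on each array of *Myh7*, of the smooth muscle markers *Myh11*, *Tagln*, *Cnn1* and *Acta2*, and of the atrial markers *Sln*, *Myl7* and *Myl4*. Symbols are as in the plot of signals by array. The first 4 genes share *Junf/f* replicate 1 as their highest and *Jun delta mu* replicate 1 as their lowest array. Of the smooth muscle markers not drawn, *Mylk* shares this and *Smtn*, *Myocd* and *Lmod1* do not. *Sln*, *Myl7* and *Myl4* are high on *Jun delta mu* replicate 2, a pattern that other atrial markers of the list, not drawn, did not all share.

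The genes whose profile over the 4 arrays was most like that of *Myh7* were *Dct*, *Tagln* and *Cnksr1*. Likeness was the greatest deviation on any array after each profile was centred on its own mean, among 653 probe sets above the median signal with a range of at least 0.5 times that of *Myh7*, which was 1.39. The greatest deviation was 0.14 for *Dct*, an enzyme of melanin synthesis, 0.20 for *Tagln*, a smooth muscle protein, and 0.30 for *Cnksr1*, a scaffold of Ras signalling. *Dct* read 6.73 and 6.20 in *Junf/f* and 5.36 and 5.99 in *Jun delta mu* hearts. The ranking is a description over 4 arrays, which all profiles share.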

How the data were processed

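RNA of 4 whole hearts, 2 *Junf/f* and 2 *Jun delta mu*, was hybridized to Affymetrix arrays for the mouse genome. The deposited log2 values are RMA signals per probe set, which the authors background-corrected and normalized between arrays. The methods name the AGCC software and the submitters' processing notes RMA in oligo, without versions. Of 45101 probe sets, 64 AFFX controls were left out. The other 45037 were fitted without further normalization or filter in R 4.3.3 by lmFit and eBayes of limma 3.58.1, with genotype as the only term, two-sided tests and Benjamini-Hochberg adjustment over all of them. The study's threshold uses limma's p in place of the Student's test that the methods name. Annotation gave 1 gene to 34945 probe sets, several to 932 and none to 9160. A gene with several probe sets is led by the one with the highest mean over the 4 arrays. All 10 members matched a RefSeq entry by gene identifier. The labels do not say that the hearts were independent of litter or day. The number of arrays limits the precision. Named genes were the members, *Jun*, list genes past the threshold, up to 4 others of each list in its order, and the 3 nearest profiles. *Myhas*, *Hand2*, *Tead1*, *Sox6*, *Med13*, *Myod1*, *Myog*, *Mylk*, *Smtn*, *Myocd*, *Lmod1*, *Unc45b*, *Smyd1*, *Ttn* and *Mybpc3* were named outside it or ahead of list order, after their values were seen. The same holds for *Bmp10*, *Dkk3*, *Stard10*, *Nr2f2* and *Nr2f1*. Members and lists were chosen with earlier results of these data known. The limma fit was run on simulated arrays with independent normal errors and added shifts. These held no array that stands apart, so the run cannot speak to that case. Figures were drawn with matplotlib 3.10.9.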

Additional observations from a re-analysis of the deposited data

How the results depend on the processing

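The count of myosin heavy chain probe sets past the study's threshold, 0 on all arrays, was 1 with a trended and robust prior (*Myh7*) and 0 to 2 when 1 array was left out: *Myh7b* and 1 *Myh1* probe set without *Junf/f* replicate 1, 1 *Myh6* probe set without *Junf/f* replicate 2, none without *Jun delta mu* replicate 1 and *Myh7* without *Jun delta mu* replicate 2. Where an arm had a single array, that array was assumed to vary like the other group. It stayed 0 with the methods' t-test, array weights, the lowest 40% of probe sets left out, quantile, median and cyclic loess normalization, the median of all probe sets per gene, and without probe sets ending in x_at or s_at. With the replicate block it was also 0, and 683 of all probe sets passed against 688 without it. Same-numbered arrays shared little beyond the number (correlation of their deviations 0.03), and 2 pairs do not show pairing. Over all probe sets the count was 200 with the methods' t-test, 210 genes as the median over probe sets, and 739 to 3452 with 1 array left out, the highest without *Junf/f* replicate 2.

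*Jun* passed under all 14 alternatives, and the *Myh7* to *Myh6* difference stayed below 0 under the 8 run for it, at -1.12 to -0.26 with 1 array left out. Of 136 values of the 10 members under the alternatives, 13 turned direction, all in genes within 0.22 of 0. They were *Myh1* at -0.00796 by quantile normalization, -0.00963 by cyclic loess and -0.19 by the median over its probe sets, *Myh3* at -0.0217 by quantile normalization and -0.0193 by cyclic loess, and *Myh9* at 0.0295 by the median over its probe sets. With 1 array left out, *Myh1* ran from -0.0251 to 0.0507, *Myh3* from -0.0787 to 0.0831, *Myh4* from -0.18 to 0.00817, *Myh7b* from -0.49 to 0.0529 and *Myh8* from -0.000945 to 0.15. *Myh7* (-1.14 to -0.29), *Myh6*, *Myh2* and *Myh10* stayed below 0 under each alternative. *Myh1*, *Myh3*, *Myh4* and *Myh8* had no value once the lowest 40% of probe sets were left out.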
